A study of Mus musculus with 9 samples.

Results

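Anxa2, Anxa5, Anxa6, S100a4, S100a6, S100a10, S100a11, Ahnak, Lgals1 and Vim are 10 genes often named together in descriptions of memory lymphocytes, and they were followed here through 3 kinds of sorted mouse B cell. The 10 genes were taken by symbol from the 24346 genes listed for every library, and all 10 were found in each of the 9 libraries. They were selected on knowledge of their FPKM in ABCs and FO B cells of these same libraries, so their values in that contrast are a description: no p is given for them there, and the counts of calls are no evidence about them. Levels are in FPKM, reads scaled by transcript length and by sequencing depth, which allows genes to be compared per length.

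Splenic B cells of wild-type C57BL/6 mice were sorted by surface staining. Follicular (FO) B cells, the recirculating naive B cells of the follicle, were B220 high, CD43-, CD23+ and CD21 low, and came from mice aged 8 weeks (young) or 50 weeks (aged). Age-associated B cells (ABCs), a T-bet-expressing population that accumulates with age, came from mice aged 50 weeks only, and differed from the FO gate in being CD23-, CD11b+ and CD11c+. Each of the 3 groups had 3 libraries from 3 mice, no group carried a transgene or received a treatment, and ABCs of young mice were not analysed here.

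Annexins are cytosolic proteins that bind acidic phospholipids when calcium rises, and they take part in membrane trafficking, membrane repair and the anchoring of cortical actin. S100 proteins are small calcium-binding dimers. S100A10 differs in being locked in an active form without calcium, and it joins annexin A2 in a heterotetramer that docks on the very large scaffold protein AHNAK beneath the plasma membrane. Galectin-1, the product of Lgals1, binds beta-galactosides on glycoproteins, and vimentin is the intermediate filament of leukocytes and mesenchymal cells.

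The libraries fitted their labels on the genes for CD23 and CD11c. Fcer2a, which encodes CD23, was between 696.6 and 1036 FPKM in the 6 FO libraries and between 0.463 and 6.95 FPKM in the 3 ABC libraries. Itgax, which encodes CD11c, was at or under 0.206 FPKM in the FO libraries and between 45.0 and 59.7 FPKM in the ABC libraries, and Tbx21, which encodes T-bet, was between 165.0 and 188.6 FPKM in ABCs. Spn, which encodes CD43, the antigen that both gates left out, was between 2.75 and 3.32 FPKM in aged FO B cells and between 54.1 and 86.7 FPKM in ABCs, so its RNA went against that part of the ABC gate. Cr2, which encodes CD21, was between 127.4 and 166.3 FPKM in aged FO B cells and between 0.745 and 8.39 FPKM in ABCs. Its RNA thus differed widely although both gates were CD21 low. The approximate number of mapped reads, recovered from the steps in which low FPKM values move, was between 7500000 and 9120000 per library. ABC replicate 3 stood apart from the other ABC libraries on several genes, with the lowest Fcer2a and Cr2 levels, so results that rest on it are given with and without it. Bulk libraries cannot tell a change in RNA per cell from a change in the make-up of the sorted cells.

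The 10 genes are protein-coding in GENCODE M21 (assembly GRCm38, the build of mm10) and lie on 6 chromosomes. Anxa5 and the 4 S100 genes share chromosome 3. S100a4 (90603771 to 90606045) and S100a6 (90612882 to 90624181) sit within the main S100 run, while S100a11 (93520488 to 93526287) lies 2824766 bases beyond S100a9, the last gene of that run, and S100a10 (93555080 to 93564643) lies 28792 bases beyond S100a11. Anxa2 spans chromosome 9 from 69453620 to 69491795, Ahnak spans chromosome 19 from 8989284 to 9076914, and Lgals1 spans chromosome 15 from 78926725 to 78930465. Anxa2 overlaps an antisense gene, Gm16144, and a miRNA gene, and the library kit was not stated to keep strand, so reads of the 2 strands cannot be told apart there. A stretch of 302 bases of the S100a4 transcript also lies in the overlapping gene Gm42674, and 2 other annotated genes share 297 near-identical bases with S100a11. None of these 3 genes is listed in the files, and the counting of shared reads was not stated.

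The sequences before the start of 4 of the genes are shown because 3 of them (Anxa2, Ahnak and S100a11) were high in ABCs by very different amounts and the other, S100a6, had no common direction. They come from RefSeq on GRCm38.p6 and are trimmed to the bases before the first start in GENCODE M21, with capitals for the AP-1 motif TGANTCA and the GC box GGGCGG, which reads CCGCCC where it lies on the other strand.
Anxa2, chr9:69453433-69453619, plus strand: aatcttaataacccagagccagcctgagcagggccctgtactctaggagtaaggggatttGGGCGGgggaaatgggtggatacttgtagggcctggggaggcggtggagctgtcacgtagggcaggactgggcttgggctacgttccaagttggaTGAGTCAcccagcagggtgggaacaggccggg
Ahnak, chr19:8989034-8989283, plus strand: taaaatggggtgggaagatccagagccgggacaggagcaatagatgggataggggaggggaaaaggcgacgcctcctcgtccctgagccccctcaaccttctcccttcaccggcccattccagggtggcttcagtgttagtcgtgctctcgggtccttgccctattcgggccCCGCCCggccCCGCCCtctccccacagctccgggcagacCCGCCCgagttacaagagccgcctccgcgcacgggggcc
S100a11, chr3:93520246-93520487, plus strand: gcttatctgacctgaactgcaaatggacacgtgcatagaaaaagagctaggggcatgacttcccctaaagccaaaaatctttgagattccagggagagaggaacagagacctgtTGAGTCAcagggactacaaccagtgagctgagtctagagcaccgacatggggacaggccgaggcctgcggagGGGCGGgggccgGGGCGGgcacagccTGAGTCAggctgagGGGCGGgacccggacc
S100a6, chr3:90612644-90612881, plus strand: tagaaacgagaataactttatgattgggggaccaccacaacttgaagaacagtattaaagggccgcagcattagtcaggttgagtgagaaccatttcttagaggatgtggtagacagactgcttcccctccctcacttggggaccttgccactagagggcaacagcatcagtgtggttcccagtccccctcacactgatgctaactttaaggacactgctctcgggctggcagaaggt

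Of the 10 genes, 7 had a RefSeq entry with the 250 bases before the start. Anxa6, S100a10 and Lgals1 had no entry. On both strands of these windows the AP-1 motif was found in S100a11, at 136 and 38 bases before the RefSeq start, and in Anxa2, at 95 bases before it, so in 2 of the 7 windows against 6.75% of all 32851 windows of this length. The GC box was found in S100a11, Anxa2 and Ahnak, against 32.7% of all windows, and the TATA box TATAAA in Vim, S100a4 and Anxa2, against 12.4%. Unlike the sequences shown, the windows searched were not trimmed. The GC boxes of Anxa2 at 48 and 24 bases before the RefSeq start, and its TATA box at 17 bases, thus lie beyond the bases shown. The T-box half-site GGTGTGA (3.33% of all windows), the E2-box CACCTG (17.2%) and the ETS letters CCGGAAG (6.91%) were in none of the 7 windows. No matches of different motifs overlapped in these windows. With 7 windows these are descriptions of letters only.

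In ABCs, 3 of the 10 genes stood more than 10-fold above FO B cells of the same age (Lgals1, Anxa2 and Ahnak), 5 stood about 1.5-fold above them (Anxa5, Anxa6, S100a10, S100a11 and Vim), and S100a4 and S100a6 did not move in a common direction. In a fit of all 10412 genes with limma at a false discovery rate (FDR) under 0.05, 7 of the 9 genes with enough signal to be fitted were called higher in ABCs than in aged FO B cells and 0 were called lower, while 19.4% of all genes fitted were called higher and 16.5% lower. S100a4 fell under the minimum of a mean of 1 FPKM. The median difference of the 9 genes was 0.64 on the log2(FPKM + 1) scale, on which differences are given throughout and which understates the change of low genes, against -0.01 for all genes fitted. By the thresholds of an absolute log2 difference above 2.3 and an FDR under 0.01, the 3 genes of the first set were called, beside 1.49% of all genes. As the genes were chosen with this contrast in view, nothing is read from these counts.

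**Figure D1:**
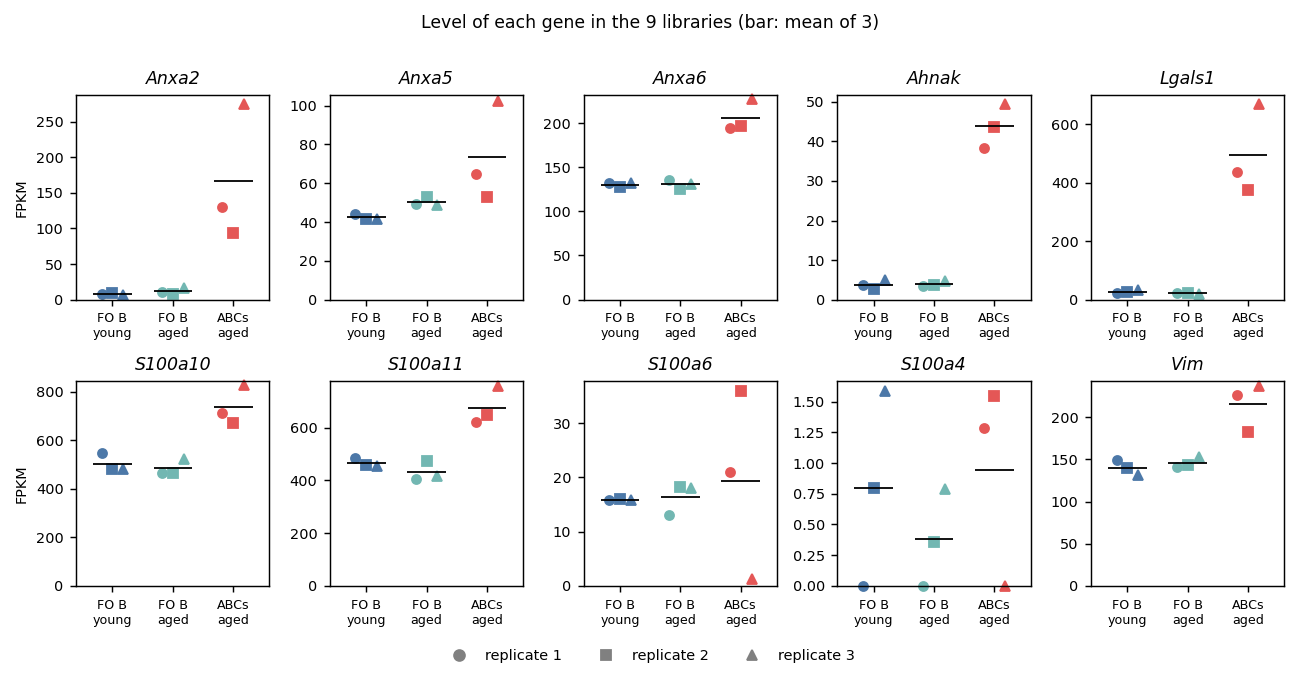
Level in FPKM (y axis, linear, from 0, with its own range for each gene) of the 10 genes in young FO B cells, aged FO B cells and ABCs. Each point is 1 library, its shape gives the replicate number and the bar is the mean of 3. Lgals1, Anxa2 and Ahnak are far higher in all 3 ABC libraries, and ABC replicate 3 is the highest library for 8 genes but the lowest for S100a6.

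Among the annexins, Anxa2, the partner of S100A10, was at 7.36, 9.99 and 6.53 FPKM in young FO B cells and at 11.1, 7.83 and 16.8 FPKM in aged FO B cells. In ABCs it was at 130.3, 93.9 and 274.3 FPKM. All ABC libraries lay above all FO libraries, with no overlap, and the ABC libraries also differed among themselves by more than the FO libraries did, with a coefficient of variation of 57.4% against 38.2% in aged FO B cells. The mean was 13.9-fold that of aged FO B cells, a log2 difference of 3.60 ± 0.41 (SE, n = 3 against 3). Without ABC replicate 3 that difference was 3.17.

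Anxa6, a large annexin with a doubled core that binds the inner face of the plasma membrane and endosomes, was already abundant in FO B cells. Its levels were 131.8, 127.2 and 131.7 FPKM in young FO B cells, 136.0, 125.5 and 130.6 FPKM in aged FO B cells and 194.3, 196.2 and 227.0 FPKM in ABCs. The ABC libraries did not overlap the others, and the difference from aged FO B cells was 0.65 ± 0.08 (log2, SE). Anxa5, the phosphatidylserine-binding annexin used as a probe for dying cells, was at 44.3, 41.7 and 41.5 FPKM in young FO B cells, at 49.3, 52.9 and 48.6 FPKM in aged FO B cells and at 64.9, 53.0 and 102.6 FPKM in ABCs. The lowest ABC library was just above the highest aged FO library, at 53.04 against 52.90 FPKM. The difference from aged FO B cells was 0.49 ± 0.22 (log2, SE), and it was 0.22 without ABC replicate 3.

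Ahnak, the scaffold on which the annexin A2 and S100A10 complex docks, was low in FO B cells, at 3.68, 2.80 and 4.89 FPKM in young and 3.54, 3.81 and 4.60 FPKM in aged mice. In ABCs it was at 38.4, 43.7 and 49.4 FPKM. The ABC libraries were close to each other, with a coefficient of variation of 12.6%, and none overlapped an FO library. The mean was 11.01-fold that of aged FO B cells and the log2 difference was 3.17 ± 0.13 (SE). The level of Ahnak lay above that of 12.3% to 21.9% of expressed genes in young FO libraries and above that of 74.3% to 79.1% in ABC libraries.

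S100a10 and S100a11 were the most abundant of the 10 genes in FO libraries, per length. S100a10 was at 548.2, 479.6 and 479.7 FPKM in young FO B cells, at 464.0, 465.2 and 523.6 FPKM in aged FO B cells and at 711.6, 671.0 and 825.5 FPKM in ABCs. S100a11, another S100 gene whose product binds annexins, was at 484.1, 460.2 and 453.5 FPKM in young FO B cells, at 403.9, 472.2 and 418.3 FPKM in aged FO B cells and at 620.1, 647.5 and 759.2 FPKM in ABCs. For both genes the ABC libraries were above all FO libraries, while the FO groups overlapped each other. The differences between ABCs and aged FO B cells were 0.60 ± 0.10 for S100a10 and 0.64 ± 0.10 for S100a11 (log2, SE), and the ratio of S100a11 to S100a10 was 0.929 ± 0.041 in young FO B cells, 0.895 ± 0.110 in aged FO B cells and 0.919 ± 0.047 in ABCs (SD, n = 3).

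The level of S100a10 per Anxa2, taken within each library, was lower in ABCs. The ratio was 74.5, 48.0 and 73.5 in young FO B cells, 41.8, 59.4 and 31.1 in aged FO B cells and 5.46, 7.15 and 3.01 in ABCs. The mean ratio of ABCs was 8.47-fold lower than that of aged FO B cells and 12.5-fold lower than that of young FO B cells. The ABC libraries did not overlap the FO libraries, and the 2 FO groups overlapped each other. With any 1 library left out, the mean ratio of ABCs stayed between 0.0961 and 0.143 of that of aged FO B cells.

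**Figure D2:**
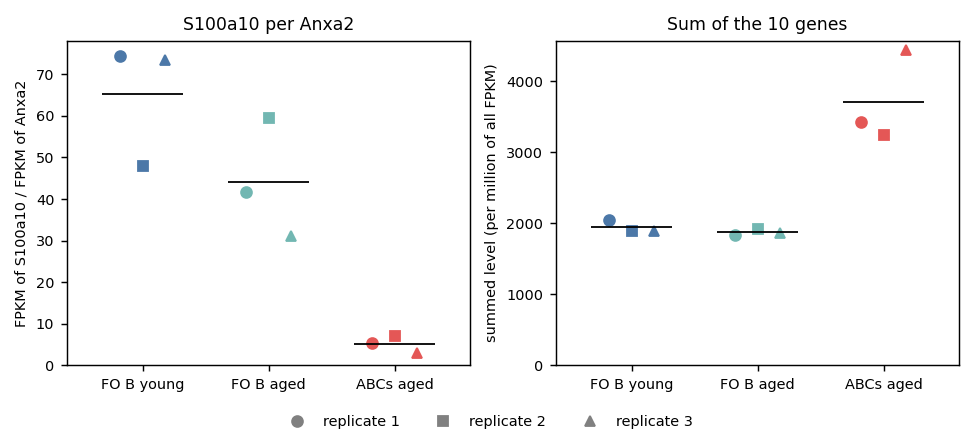
Left, FPKM of S100a10 divided by FPKM of Anxa2 in each library. Right, summed level of the 10 genes on the TPM scale, in which all genes of a library have the same total, with both y axes linear from 0, shapes for replicate numbers and bars for the mean of 3. The ratio lies between 31.1 and 59.4 in aged FO B cells and between 3.01 and 7.15 in ABCs, while the sum lies between 3243 and 4441 in ABCs and at or under 2045 in all FO libraries.

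S100a6, which encodes calcyclin and lies next to S100a5 in the main S100 run, was the gene in which the ABC libraries disagreed. Its levels were 15.80, 15.98 and 15.90 FPKM in young FO B cells, 13.13, 18.20 and 18.02 FPKM in aged FO B cells and 20.97, 36.0 and 1.20 FPKM in ABCs. These values came from 71, 71 and 71 reads, 54, 91 and 81 reads, and 87, 165 and 5 reads. ABC replicates 1 and 2 were above every FO library and ABC replicate 3 was below every FO library. The difference between ABCs and aged FO B cells was -0.51 ± 0.94 on the log2 scale with all libraries and 0.72 without ABC replicate 3. The mean FPKM ran the other way even with all libraries, at 19.4 in ABCs against 16.4 in aged FO B cells, so the sign depended on that library and on the scale. The same library had the lowest level of Anxa1 of all, at 0.307 FPKM from 3 reads, against 6.39 and 9.42 FPKM in ABC replicates 1 and 2.

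S100a4, which encodes a metastasis-associated partner of non-muscle myosin and is a common marker of memory T cells, was close to the limit of detection. It was at 0, 0.798 and 1.59 FPKM in young FO B cells, at 0, 0.355 and 0.789 FPKM in aged FO B cells and at 1.28, 1.55 and 0 FPKM in ABCs. This amounts to 6 reads over the young FO libraries, 3 over the aged FO libraries and 7 over the ABC libraries. Each group held a library with 0 reads, the groups overlapped, and no difference was detectable at this depth. S100a4, for all its use as a memory marker, was thus near 0 as counted in every group. S100a6 was above every FO library in 2 of the 3 ABC libraries. These were at 20.97 and 36.0 FPKM, against 18.20 FPKM in the highest FO library. How reads shared by S100a4 and Gm42674 were counted was not stated.

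Lgals1 had the largest fold of the 10 genes against aged FO B cells (23.2-fold), whereas against young FO B cells Anxa2 (20.9-fold) was ahead of it (18.1-fold). It was at 23.0, 27.0 and 32.0 FPKM in young FO B cells, at 23.5, 21.7 and 18.8 FPKM in aged FO B cells and at 436.0, 376.9 and 668.9 FPKM in ABCs. The log2 difference from aged FO B cells was 4.43 ± 0.20 (SE), with no overlap of libraries. It lay above 55.0% to 60.9% of expressed genes in aged FO libraries and above 97.3% to 98.4% in ABC libraries. Vim, the vimentin gene, was at 149.3, 139.3 and 131.3 FPKM in young FO B cells, 141.0, 143.8 and 153.2 FPKM in aged FO B cells and 226.0, 182.3 and 237.5 FPKM in ABCs. Its ABC libraries also lay above all FO libraries, and its difference from aged FO B cells was 0.55 ± 0.10.

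Against young FO B cells, which share no library with aged FO B cells but were set against the same 3 ABC libraries, 8 of 9 genes were called higher in ABCs, beside 21.6% of all 10438 genes fitted. The log2 differences were 4.09 for Anxa2, 0.72 for Anxa5, 0.65 for Anxa6, 0.55 for S100a10, 0.53 for S100a11, 3.24 for Ahnak, 4.09 for Lgals1 and 0.61 for Vim, with -0.48 for S100a6. By the larger thresholds, 3 of the genes were called, beside 1.72% of all genes. In both comparisons 8 of the 9 fitted genes had every ABC library above every FO library, beside 26.3% of all genes against aged FO B cells and 27.7% against young FO B cells. Scaling each library to the upper quartile of its genes moved the median of all genes to 0.15 in ABCs against aged FO B cells and the share of called genes that were higher from 54.0% to 80.3%. With this scaling 8 of the 9 genes were called higher, and the differences were 4.61 for Lgals1 and 0.73 for Vim, which are also above that median. Against young FO B cells the share of called genes that were higher went from 53.0% to 66.6%.

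**Figure D3:**
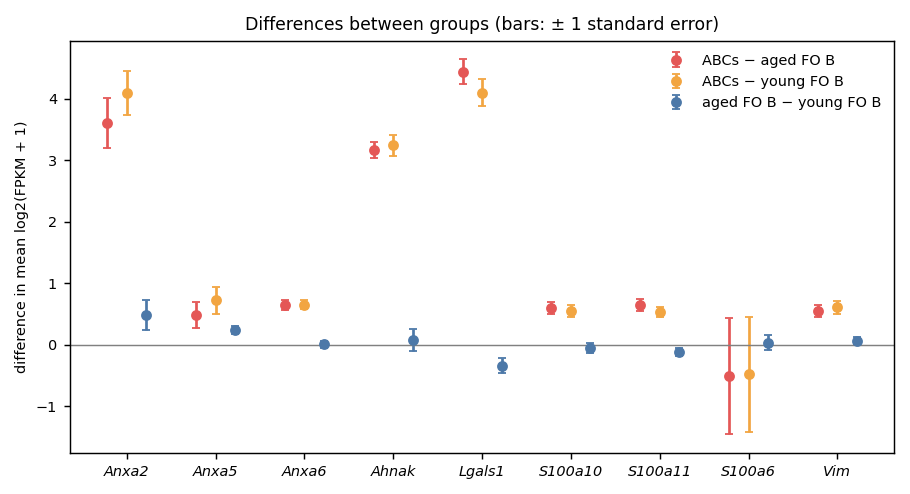
Difference in mean log2(FPKM + 1) (y axis) for the 9 genes that could be fitted, for ABCs against aged FO B cells, ABCs against young FO B cells, and aged against young FO B cells, with bars of 1 standard error from limma. Lgals1, Anxa2 and Ahnak lie above 3 in both comparisons with ABCs, and the differences between aged and young FO B cells lie between -0.34 and 0.49.

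The comparison of aged with young FO B cells asks whether these genes differed with age in 1 sorted subset. Sort day and library batch were not given in the sample labels, so they cannot be told apart from age. The FPKM of these FO libraries were also known when the genes were chosen. The p-values and FDRs of this comparison are therefore not independent of that choice. With limma 0 of 9 genes were called in either direction, beside 0.346% of 10122 genes called higher and 0.119% called lower. At an unadjusted p under 0.05 there were 2 of the 9 genes, Anxa5 and Lgals1, beside 12.8% of all genes. Anxa5 was the gene whose aged and young libraries did not overlap, with a mean of 50.3 ± 2.3 FPKM in aged and 42.5 ± 1.6 FPKM in young mice (SD, n = 3). Its log2 difference was 0.24 ± 0.06 (SE), with a limma FDR of 0.169. Its p from the exact two-sided permutation test was 0.1, the smallest that 3 against 3 libraries allow, and 9.64% of all genes were higher in every aged library. Lgals1 differed in the other direction, with 21.3 ± 2.4 FPKM in aged and 27.3 ± 4.5 FPKM in young mice. Its log2 difference was -0.34 ± 0.13 and did not pass, with an FDR of 0.315 from limma and an exact permutation p of 0.2.

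Anxa2 differed between aged and young FO B cells by 0.49 ± 0.25 on the log2 scale, with overlapping libraries and a limma FDR of 0.456. For Anxa6 the difference was 0.00 ± 0.05, for S100a10 -0.05 ± 0.07, for S100a11 -0.11 ± 0.07, for Ahnak 0.08 ± 0.18, for S100a6 0.03 ± 0.12 and for Vim 0.06 ± 0.06 (log2, SE). The limma FDR of these 6 genes was between 0.53 and 0.984, and the exact permutation p was between 0.3 and 1.0. The signs of Anxa6, S100a6, Ahnak and Vim turned negative when libraries were scaled to the upper quartile, which moved the median of all genes to -0.12. That scaling also moved the share of called genes that were higher from 74.5% to 47.1%.

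On the TPM scale, which gives the FPKM of all genes of a library the same total, the summed level of the 10 genes was 1943 ± 88.4 in young FO B cells, 1872 ± 43.3 in aged FO B cells and 3702 ± 646 in ABCs (SD, n = 3). This is 0.194%, 0.187% and 0.370% of the total. The libraries of ABCs lay between 3243 and 4441, with ABC replicate 3 the highest, and the ratio to aged FO B cells was 1.98, or 1.78 without that library. S100a10 and S100a11 made up 37.3% and 33.3% of the sum in aged FO B cells and 28.2% and 25.9% in ABCs. Lgals1 made up 1.65% in aged FO B cells and 18.5% in ABCs, and Anxa2 went from 0.917% to 6.04%.

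ABC replicate 3 was the highest of the ABC libraries for most of the genes. It was the highest of the 3 for 8 genes and the lowest for S100a4 and S100a6, whereas ABC replicate 2 was the lowest for Anxa2, Anxa5, S100a10, Lgals1 and Vim and ABC replicate 1 for Anxa6, S100a11 and Ahnak. Compared with the mean of ABC replicates 1 and 2, replicate 3 was 2.45-fold higher for Anxa2, 1.74-fold for Anxa5 and 1.65-fold for Lgals1, and between 1.16-fold and 1.20-fold higher for Anxa6, S100a10, S100a11, Ahnak and Vim. In the same library Fcer2a was at 0.0835 and Jchain at 0.244 of the mean of replicates 1 and 2, while Sdc1, also of the plasma cell list, was 3.30-fold higher, and Ccr2, of the monocyte list, was 9.83-fold higher. The part of these differences in the values of the 10 genes was not tested.

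Markers of other cell types were read beside these values, since vimentin, galectin-1 and several annexins are abundant in myeloid and stromal cells. Of 7 stromal and endothelial markers, 6 were under 1 FPKM in every library, among them Col1a1, which was at 0 in all ABC libraries. Of 9 macrophage and monocyte markers, 5 were under 1 FPKM everywhere. The summed level of the 9 was between 9.30 and 15.2 FPKM in aged FO B cells and between 194.1 and 237.8 FPKM in ABCs. Most of this came from Adgre1, which encodes F4/80 and was at 173.7 FPKM or more in ABCs, whereas Csf1r was under 1 FPKM and Lyz2, the lysozyme gene, was as high as 16.6 FPKM in a young FO library. Cd68, a lysosomal gene of the same list, was higher in ABCs than in aged FO B cells (log2 difference 1.13 ± 0.27, SE), and Ccr2 reached 1.93 FPKM in ABC replicate 3. The summed neutrophil list was at or under 0.645 FPKM in ABCs, the T cell list was between 5.10 and 37.9 FPKM there, nearly all from Cd3g, and the NK cell list was between 24.4 and 38.0 FPKM, nearly all from Prf1, the perforin gene. The summed plasma cell list was between 443.1 and 471.1 FPKM in aged FO B cells and between 976.1 and 1275 FPKM in ABCs. The sum of 5 cycling genes was between 8.41 and 12.02 FPKM in aged FO B cells and between 20.1 and 43.9 FPKM in ABCs. Their part in the values of the 10 genes was not tested.

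Other members of the same families, from lists set with earlier results of these data known, behaved unevenly in ABCs. The counts of each list stand beside the 19.4% of all genes fitted that were called higher and the 16.5% called lower in ABCs against aged FO B cells, and nothing particular to a list is read from them. The FDRs of single list genes are likewise descriptions, because earlier results were known when the lists were set. Of 9 other annexins, 6 could be fitted and 2 were called higher than in aged FO B cells with limma. Anxa8 rose from at most 0.0707 FPKM in aged FO B cells to 11.4, 15.7 and 33.4 FPKM in ABCs (log2 difference 4.23 ± 0.34, FDR 0.0002). Anxa4, an annexin gene best known from epithelia, rose from between 12.8 and 13.6 FPKM to between 19.6 and 33.9 FPKM (0.81 ± 0.20, FDR 0.0181), and this call was lost when any 1 aged FO library was left out (FDR from 0.0523 to 0.0596). Anxa1, the glucocorticoid-regulated annexin of myeloid cells, was at 15.3, 17.3 and 16.2 FPKM in aged FO B cells and at 6.39, 9.42 and 0.307 FPKM in ABCs. Its libraries did not overlap, but its difference of -1.89 ± 0.70 had an FDR of 0.0712, against 0.00294 without ABC replicate 3, 0.031 without ABC replicate 2 and 0.0325 with all 9 libraries fitted.

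Of 12 other S100 genes, 4 could be fitted, 2 were called higher in ABCs and 1 lower. S100a1, which encodes a calcium sensor known from heart muscle, was the gene of these lists that also changed with age in FO B cells. It was at 2.243, 3.403 and 2.257 FPKM in young FO B cells, at 7.05, 6.80 and 6.44 FPKM in aged FO B cells and at 21.9, 21.7 and 24.4 FPKM in ABCs. The 3 groups did not overlap, and these values came from 28 reads over the young FO libraries, 73 over the aged FO libraries and 232 over the ABC libraries. The difference between aged and young FO B cells was 1.11 ± 0.15 (limma FDR 0.0199), and it was the 1 call among the 52 related genes fitted. It was lost with no filter on low values (FDR 0.118), and when aged replicate 1 (0.0876), young replicate 1 (0.0906) or young replicate 3 (0.0656) was left out. The difference between ABCs and aged FO B cells was 1.61 ± 0.09 (limma FDR 4.2e-05), and it kept an FDR under 0.05 in every alternative fit, the highest being 0.000986 with a replicate block.

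S100a13, whose start lies 42 bases from S100a1 on the other strand, rose from between 49.8 and 52.5 FPKM in aged FO B cells to between 82.7 and 88.0 FPKM in ABCs (0.71 ± 0.06, limma FDR 0.000275). S100a9, a neutrophil gene, was called lower (-1.72 ± 0.44, limma FDR 0.021) from 2.40, 0.987 and 6.16 FPKM in aged FO B cells, and the call was lost without ABC replicate 1 (0.0602) or aged FO replicate 1 (0.0607). Along the main S100 run of chromosome 3 the mean level in ABCs was 22.7 FPKM at S100a1 and 84.7 FPKM at S100a13, under 1 FPKM at S100a14, S100a16, S100a3, S100a2, S100a4 and S100a5, 19.4 FPKM at S100a6, and under 1 FPKM again at S100a7a, S100a8 and S100a9. Beyond that run it was 675.6 FPKM at S100a11 and 736.0 FPKM at S100a10.

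**Figure D4:**
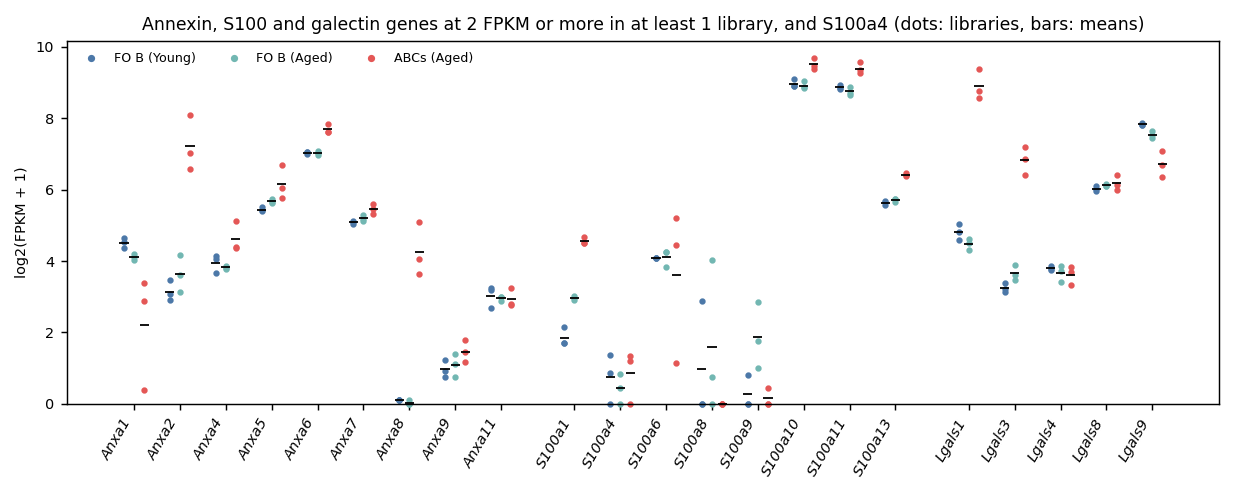
log2(FPKM + 1) (y axis) of the annexin, S100 and galectin genes that reached 2 FPKM in at least 1 library, and of S100a4. Dots are libraries, coloured by group, and bars are means of 3. Anxa8, Anxa2, Lgals1 and Lgals3 are higher in all ABC libraries than in all FO libraries, Anxa1 and Lgals9 are lower, and S100a1 steps up from young FO B cells to aged FO B cells to ABCs.

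Of 8 other galectins, 4 could be fitted. Lgals3, which encodes the chimeric galectin-3 of macrophages and activated lymphocytes, rose from 10.2, 13.8 and 11.2 FPKM in aged FO B cells to 145.4, 115.7 and 83.3 FPKM in ABCs (log2 difference 3.16 ± 0.20, limma FDR 7.22e-05). Lgals9, the tandem-repeat galectin-9 gene, fell from between 172.0 and 198.6 FPKM to between 80.3 and 134.0 FPKM (-0.82 ± 0.17, limma FDR 0.00928), a call lost under upper-quartile scaling (0.0639). Unlike Lgals1, Lgals3 was lowest in ABC replicate 3. Among 10 other intermediate filament and lamin genes, 3 could be fitted and Lmna, the lamin A/C gene, was called higher (1.95 ± 0.20, limma FDR 0.000431) at a level of 4.08 to 6.45 FPKM in ABCs.

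Of 12 membrane repair genes and annexin partners, 11 were listed, 8 could be fitted, 2 were called higher in ABCs and 1 lower. The 2 were the large subunits of the calcium-dependent proteases calpain-1 and calpain-2, with differences of 0.67 ± 0.10 for Capn1 (limma FDR 0.0024) and 2.22 ± 0.19 for Capn2 (0.000224). Capn2 was at 52.6, 45.2 and 75.2 FPKM in ABCs and at most 13.1 FPKM in aged FO B cells. Myof, the gene for the membrane-fusion protein myoferlin, was lower (-1.24 ± 0.25, limma FDR 0.00763) at levels under 2.5 FPKM.

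Of 18 genes of the actin cortex, 17 could be fitted, 0 were called lower with limma and 6 higher, among them Flna, Tln1, Iqgap1, Capg and Lsp1, with differences from 0.35 to 0.88. The call of Iqgap1 was lost without aged FO replicate 3 (limma FDR 0.0512). The median over the 17 was 0.09, against -0.01 over all genes.

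Among 14 genes that mark memory B cells, 13 could be fitted, 9 were called higher in ABCs than in aged FO B cells and 1 lower, beside 19.4% and 16.5% of all genes, with a median difference of 1.12 against -0.01 over all genes. The 9 were Cd80, Pdcd1lg2, Nt5e, Cd38, Cd44, Itgb1, Zbtb32, Zbtb20 and Emp3. Of these, Pdcd1lg2 lost its call with no filter (limma FDR 0.0574) and without ABC replicate 1 (0.068), aged FO replicate 1 (0.0571) or aged FO replicate 2 (0.071). Itgb1, the integrin beta-1 chain, rose from at most 13.1 FPKM to 346.7, 274.8 and 467.3 FPKM (4.67 ± 0.17, limma FDR 9.66e-06), in the same order of ABC replicates as Lgals1 and Anxa2. Cd80, a ligand of CD28, rose by 4.32 ± 0.21, and Nt5e, the CD73 ectonucleotidase gene, rose by 5.13 ± 0.15, both with an FDR from limma of 2.28e-05 or less. Crip1, which encodes a LIM-domain protein often listed beside S100a4, was lower (-0.40 ± 0.13, limma FDR 0.0442), and 9 of the alternatives lost that call, among them leaving out ABC replicate 1 (0.0992), ABC replicate 2 (0.0911), or aged FO replicate 1 (0.0936), 2 (0.107) or 3 (0.123), with the highest FDR, 0.372, under quantile normalization. Ccr6, of the memory list, was not called. It was at 143.0, 151.1 and 72.1 FPKM in ABCs, below all aged FO libraries (186.0 to 210.3 FPKM). Its difference was -0.74 ± 0.26 (limma FDR 0.0621). Itgb7 (-0.04 ± 0.15, limma FDR 0.862) and Plp2 (0.16 ± 0.07, limma FDR 0.133) were not called either. Cd27, at a mean of 0.656 FPKM in aged FO B cells and 0.184 FPKM in ABCs, could not be fitted. Over all related lists, 82 of 83 genes were listed, 55 could be fitted, 23 were called higher and 4 lower.

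The genes whose profile over the 9 libraries was nearest to the median profile of the 10 were found by the root mean square difference of log2(FPKM + 1), centred on young FO B cells. They were Pttg1 (0.0397), Tmco1 (0.0444), Tmbim4 (0.0637), Capg (0.0664) and Scamp2 (0.0664). Capg, the actin-capping gene of the cortex list, had a mean of 448.4 ± 13.95 FPKM in aged FO B cells and 728.4 ± 76.9 FPKM in ABCs (SD, n = 3), a 1.62-fold difference. The ABC means of these 5 genes were 1.46-fold to 1.62-fold those of aged FO B cells, in the range of Vim (1.47-fold), S100a10 (1.52-fold) and Anxa6 (1.58-fold) and far from those of Ahnak, Anxa2 and Lgals1.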

How the data were processed

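The deposited files hold FPKM values that the authors computed for 9 libraries, made with the SMART-Seq HT and Nextera kits and sequenced as single-end reads of 101 bases. The submitters' processing notes name TopHat2 2.1.1, Bowtie2 2.2.8, SAMtools 0.1.18 and Cuffdiff 2.2.1 on mm10, and the annotation was not given in the sources used here. The paper's methods give other versions of TopHat, Bowtie2 and SAMtools and name Cufflinks for the FPKM. Which of these made the deposited values cannot be told here. Groups came from the sample titles. The 10 genes and all lists were chosen with earlier results of these data known.

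From the deposited FPKM values, log2(FPKM + 1) was analysed in R 4.3.3 by limma 3.58.1 (lmFit, eBayes with trend) on the 6 libraries of each comparison, with a mean of at least 1 FPKM and Benjamini-Hochberg FDR over all genes fitted. Single genes were also tested by exact two-sided permutation over 20 orders. This fit was also run on simulated data, with an outcome that is not reported here. Reads were recovered from whole steps of FPKM (tolerance 0.05 of a read). Named genes were the 10 genes, the called genes of the related lists, and the 5 nearest profiles. Some called genes are not reported here. Anxa1, Adgre1, Csf1r, Lyz2, Col1a1, Jchain, Sdc1, Ccr2, Cd68, Cd3g, Prf1, Spn, Ccr6, Itgb7, Plp2 and Cd27 were named after their values were seen. Alternatives were pseudocounts of 0.1 and 0.01, no filter, a mean of 5 FPKM, other scalings, no trend, all 9 libraries, a replicate block, larger thresholds, and each library left out once. Other computations used Python 3.11.15, pandas 2.3.3 and scipy 1.17.1.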

Additional observations from a re-analysis of the deposited data

How the results depend on the processing

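The larger thresholds were an absolute log2 difference above 2.3 and an FDR under 0.01, in place of an FDR under 0.05. With them 3 of the 10 genes were called higher in ABCs against aged FO B cells, beside 1.49% of all genes. Against young FO B cells 3 were called higher, beside 1.72% of all genes. Of the related genes, 6 were called higher and 0 lower in ABCs against aged FO B cells, beside 1.49% and 0.432% of all genes. In aged against young FO B cells 0 related genes were called higher, beside 0.0198% of all genes. Related genes called lower in ABCs numbered 2 with upper-quartile scaling, 8 with all 9 libraries fitted, and from 1 to 8 with 1 library left out (8 without ABC replicate 3, 1 without aged FO replicate 1 or 3). Without these changes 4 were called lower, beside 16.5% of all genes. The 1 related gene called in aged FO B cells, S100a1, was not called with no filter. With a mean of at least 5 FPKM the count was also 0, because S100a1 fell under that minimum and was not tested. The count was 0 to 1 with 1 library left out, and 0.346% of all genes were called higher with none left out. Leaving out 1 library gave 7 to 8 of the 10 genes called higher in ABCs against aged FO B cells, 7 to 9 against young and 0 in aged against young FO B cells. With no library left out, 7, 8 and 0 of the 9 genes fitted were called higher, beside 19.4%, 21.6% and 0.346% of all genes. The shares of all genes with 1 library left out are not reported here, and nothing is read from these counts.

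S100a6 turned to 0.72 in ABCs against aged and 0.75 against young FO B cells without ABC replicate 3 (range from -1.31 and -1.28). Between aged and young FO B cells, differences near 0 changed sign. Anxa6 was -0.00463 scaled to TPM, -0.12 with upper-quartile scaling and -0.0186 with quantile normalization, and with upper-quartile scaling S100a6 was -0.0901, Ahnak -0.0305 and Vim -0.0680. With 1 library left out, Anxa6 ranged from -0.0243 to 0.0332, S100a6 from -0.0435 to 0.177, S100a10 from -0.110 to 0.0115 and Ahnak from -0.0805 to 0.236. The FDR of Anxa5 there ranged from 0.161 to 0.768 over the alternatives and that of Lgals1 from 0.14 to 0.671. Of 1073 values under alternatives, 15 changed sign. The cause of these changes was not tested.

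Deviations of libraries with the same replicate number correlated weakly, at 0.0845, -0.019 and 0.108 in ABCs against aged FO B cells and at -0.0541, 0.138 and -0.0921 in aged against young FO B cells. Replicates 1 and 3 of the first comparison and replicate 2 of the second correlated best with their own number, and the others did not. Whether a shared number marks the same mouse was not stated, and these values cannot decide it. In fits with a replicate block, the count of the 10 genes called higher was 7 in ABCs against aged FO B cells, 8 against young, and 0 in aged against young FO B cells. Without the block, 19.4%, 21.6% and 0.346% of all genes were called higher in these comparisons. Shares of all genes with the block are not reported here, and nothing is read from these counts. At 3 to 7 reads per group, no difference in S100a4 was detectable. The parts of depth and of shared reads in this low count were not tested.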
